A study of Mus musculus with 8 samples.

Results

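Pdcd1 encodes the receptor PD-1 and Cd274 its ligand PD-L1, and both were taken from the authors' deposited table by their gene symbols, which gave 2 of its 752 genes, each present in 1 row. Pdcd1 (ENSMUSG00000026285) is a protein-coding gene on the minus strand of chromosome 1, from 94038305 to 94052553, and Cd274 (ENSMUSG00000016496) is one on the plus strand of chromosome 19, from 29367455 to 29388095 (GRCm38). Bulk RNA was sequenced from 8 subcutaneous tumors that MC38 cells, a mouse colon adenocarcinoma line of C57B/L6 mice, had formed in germ-free mice of that strain, all labelled WT and collected on day 23. Tumors 11, 17, 18 and 19 came from mice given an antibody against PD-1 into the peritoneum, and tumors 36, 37, 39 and 40 from mice given that antibody and also Fusobacterium nucleatum ATCC-25586 by gavage. The 4 tumors with the antibody alone are called controls below. Both groups of 4 therefore carry the antibody, and no untreated tumor and no tumor with the bacterium alone was analysed here. The labels number tumors, not mice, so the spread between tumors is the only replicate error measured.

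PD-1 is an inhibitory receptor that activated T cells place on their surface, and PD-L1 is the ligand that tumor cells, macrophages, dendritic cells and other cells present to it. When PD-L1 binds PD-1, phosphatases are drawn to the receptor and signalling from the T cell receptor and CD28 is damped. Transcription of Pdcd1, the gene of PD-1, follows T cell receptor stimulation, and that of Cd274, the gene of PD-L1, is induced by interferon-gamma, which activated T cells and natural killer cells release. Therapeutic antibodies against PD-1 block this contact.

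The table had been restricted to genes with an unadjusted p of at most 0.04995 in the comparison of these groups and an absolute log2 difference above 1. Both genes therefore had to differ to be listed, and their differences describe these tumors without adding evidence of their own. Values are log2(normalized count + 1), from which whole reads were recovered, and FPKM, which also corrects for transcript length. Recovered reads over the listed genes ranged from 97511 to 308139 per tumor, and relative size factors from 0.644 to 1.27. Tumor 36 stood apart by skeletal muscle genes and tumor 37 by skin genes. All 10 muscle markers listed were in the table, and their summed level was 384.3 FPKM in tumor 36 against 2.81 to 19.8 FPKM in the other F. nucleatum tumors and 1.95 to 2.40 FPKM in the controls. For the 9 of 10 skin markers in the table the sum was 252.3 FPKM in tumor 37 and at most 1.77 FPKM in the other 7 tumors. All 5 red blood cell markers were higher on average too, with sums of 582.1 to 1455 FPKM against 357.6 to 657.5 FPKM. Of 3 carcinoma markers only Epcam was in the table, listed at 0 in 6 tumors and at 1.30 FPKM in tumor 37, and values of Krt8 and Krt18 were not analysed here.

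Pdcd1 was lower in every F. nucleatum tumor than in any tumor with anti-PD-1 alone. Its log2 normalized counts were 6.66, 6.80, 6.78 and 6.49 in tumors 11, 17, 18 and 19, and 5.33, 4.29, 3.96 and 3.39 in tumors 36, 37, 39 and 40. The 4 control tumors lay close together, the F. nucleatum tumors were spread out below them, and tumor 36 was the nearest to the controls. The recovered reads behind these values were 105, 71, 107 and 113 with anti-PD-1 alone and 49, 16, 18 and 9 with F. nucleatum. With exact Poisson intervals at 95%, which cover counting error only, the 9 reads of tumor 40 allow 4.12 to 17.1 reads and the 71 reads of tumor 17 allow 55.5 to 89.6. In FPKM the levels were 0.830, 0.879, 0.859 and 0.715 against 0.325, 0.142, 0.114 and 0.0673.

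The log2 difference of Pdcd1 was -2.44 ± 0.554 (limma SE, n = 4 and 4), a 5.43-fold lower level. The groups did not overlap, which also held for other genes of the table: 93 of the 752 (12.4%) were lower without overlap. These 93 were among its 353 lower genes. A two-sided exact permutation test gave p = 0.0286, the smallest that 70 arrangements allow, and inverting it at 0.05 gave an interval of -3.40 to -1.17 for the log2 difference. In limma, fitted on all 752 genes, the unadjusted p was 0.00104 and the Benjamini-Hochberg adjusted p was 0.0932. Because these genes had been selected on the same comparison, no adjusted p from this table is a false discovery rate over all measured genes. No gene had an adjusted p under 0.05 in that fit (0 of 752, 0%), while 323 had an unadjusted p under 0.05; with voom on the recovered reads these counts were 0 and 258. In the authors' deposited table, made by a test that the sources used here do not give, Pdcd1 had an FDR of 6.2e-05 and was one of 47 lower genes (6.25% of the table) below an FDR of 0.05. By p it ranked 9 among the lower genes there.

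The call in limma depended on the tumors that stood apart. Without tumor 36 the difference was -2.80 (limma unadjusted p = 9.46e-05, adjusted p = 0.00868). Without tumors 36 and 37 it was -3.01 (limma unadjusted p = 0.000159, adjusted p = 0.0135). Without tumor 37 alone it was -2.46 (limma unadjusted p = 0.00211, adjusted p = 0.0476). In that last fit the unadjusted p was larger than the 0.00104 of the fit with all tumors, and 656 genes were tested in place of 752. Its lower adjusted p is therefore not stronger evidence for Pdcd1. On log2(FPKM + 1), where an added 1 exceeds every Pdcd1 value, the difference was -0.65 (limma adjusted p = 0.161). Over the alternatives run, the adjusted p of Pdcd1 ranged from 0.00597 to 0.169.

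Cd274 was also lower on average with F. nucleatum, but the groups overlapped. Its log2 normalized counts were 9.29, 10.82, 10.88 and 10.02 in tumors 11, 17, 18 and 19, and 9.86, 8.01, 9.12 and 9.09 in tumors 36, 37, 39 and 40. Tumor 36 was above tumor 11, tumors 17 and 18 were the highest of all 8, and tumor 37 was the lowest. Reads were far more plentiful than for Pdcd1, from 221 in tumor 37 to 1858 in tumor 18. In FPKM the levels were 2.77, 7.75, 8.01 and 4.45 against 4.15, 1.09, 2.42 and 2.27. The 4 controls alone spanned a 2.89-fold range in FPKM, and the 4 F. nucleatum tumors a 3.801-fold range.

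The log2 difference of Cd274 was -1.23 ± 0.520 (limma SE, n = 4 and 4), a 2.35-fold lower level. The exact permutation test gave p = 0.0571 and an interval of -2.87 to 0.57, which includes no difference. Limma gave an unadjusted p of 0.0373 and an adjusted p of 0.108, and its adjusted p ranged from 0.0549 to 0.197 over the alternatives run. The FDR in the authors' deposited table was 0.712. Leaving out 1 tumor at a time moved the difference between -1.55 (without tumor 11) and -0.89 (without tumor 37).

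**Figure D1:**
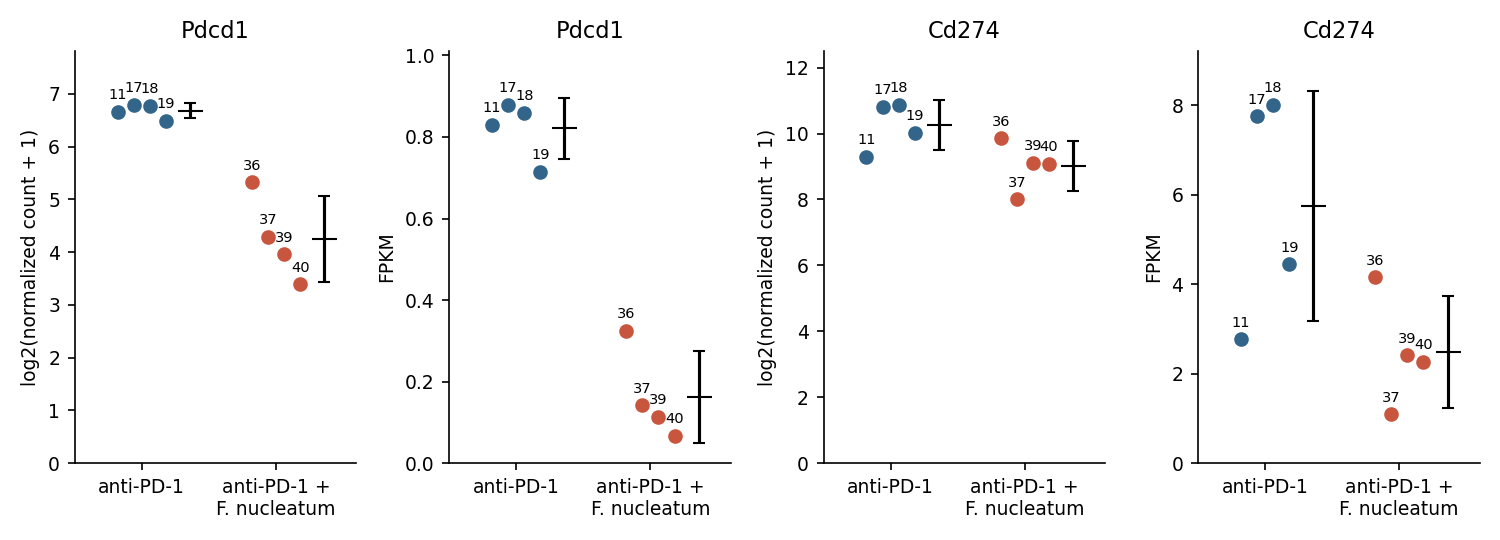
Pdcd1 and Cd274 in each tumor, as log2(normalized count + 1) and as FPKM; points are tumors with their numbers, and black marks are the mean ± SD of 4 tumors, with all axes from 0. The 4 F. nucleatum tumors of Pdcd1 lie at 3.39 to 5.33, below the 6.49 to 6.80 of the controls, whereas those of Cd274 (8.01 to 9.86) overlap the controls (9.29 to 10.88).

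Per transcript length Cd274 was the more abundant of the pair in every tumor. Its FPKM was 3.34 to 9.33 times that of Pdcd1 in the 4 tumors with anti-PD-1 alone and 7.67, 12.8, 21.3 and 33.7 times in tumors 37, 36, 39 and 40. The log2 ratio of Pdcd1 to Cd274 in normalized counts averaged -3.57 ± 0.68 (SD, n = 4) in the controls and -4.78 ± 0.85 (SD, n = 4) in the F. nucleatum tumors. The difference of -1.21 did not pass the test (exact permutation p = 0.0857, adjusted p = 0.214 over 5 ratios, interval -3.07 to 0.38). A larger decrease of the receptor than of the ligand was therefore not shown. On log2(FPKM + 1) the sign of this difference turned to 0.29 (adjusted p = 0.429 by the exact permutation test).

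Pdcd1 was set beside Cd8a, a chain of the CD8 co-receptor that marks cytotoxic T cells, and Cd3g, a chain of the CD3 complex that carries T cell receptor signals. Cd8a had log2 normalized counts of 7.45, 7.60, 6.47 and 5.55 in tumors 11, 17, 18 and 19, and 4.55, 5.57, 3.52 and 2.06 in tumors 36, 37, 39 and 40. Cd3g had 6.70, 7.58, 5.41 and 5.64 against 5.50, 4.85, 3.05 and 3.66. Both were lower on average with F. nucleatum and both overlapped between groups, Cd8a only by tumor 37 against tumor 19; in FPKM these 2 tumors had 0.190 and 0.194, and the Cd8a groups just parted. Their log2 differences were -2.84 ± 0.804 for Cd8a (limma SE, adjusted p = 0.0932) and -2.07 ± 0.725 for Cd3g (limma SE, adjusted p = 0.09996).

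The control tumors varied less in Pdcd1 than in Cd8a or Cd3g. Among them the coefficient of variation in FPKM was 8.97% for Pdcd1, 57.0% for Cd8a and 72.0% for Cd3g. Counting error alone is 9.41% to 11.9% per tumor for Pdcd1 at these reads, so its spread among the controls was no wider than counting allows. Other T cell genes also had a small spread there, such as Tnfrsf4 (0.811 ± 0.0217 FPKM) and Eomes (0.152 ± 0.0210 FPKM; SD, n = 4). Tumors 11 and 17, the highest in Cd8a, were not separated from tumors 18 and 19 in Pdcd1. With F. nucleatum, Pdcd1 had the order 36, 37, 39, 40 and Cd8a the order 37, 36, 39, 40. Because Pdcd1 falls into 2 separate clusters that are the treatment groups, with 4 tumors in each, no pooled correlation with Cd8a or Cd3g is given, and its group-centred r with them is given as a description among the most alike genes.

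**Figure D2:**
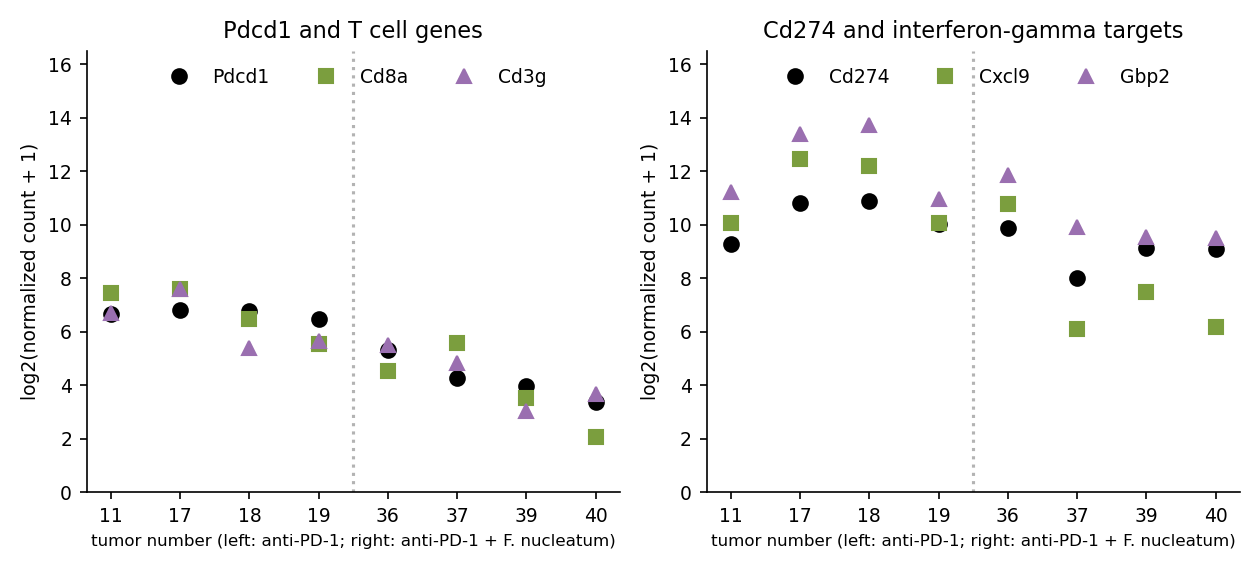
Log2(normalized count + 1) of Pdcd1 with Cd8a and Cd3g (left) and of Cd274 with Cxcl9 and Gbp2 (right) in each of the 8 tumors, with anti-PD-1 alone left of the dotted line and F. nucleatum right of it. Pdcd1 is nearly level over the controls (6.49 to 6.80) where Cd8a runs from 5.55 to 7.60, and tumor 36 has the highest Cd274, Cxcl9 and Gbp2 of its group.

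The ratio of Pdcd1 to a T cell gene asks whether the receptor gene differed by more than the T cell genes did. The log2 ratio of Pdcd1 to Cd8a was -0.79, -0.80, 0.31 and 0.95 in tumors 11, 17, 18 and 19 and 0.78, -1.28, 0.43 and 1.33 in tumors 36, 37, 39 and 40. The group means differed by 0.40 (exact permutation p = 0.657, adjusted p = 0.657, interval -2.22 to 2.13). This small difference changed sign on both FPKM scales, to -0.17 each (adjusted p = 0.393 and 0.8 by exact permutation). The ratio to Cd3g was -0.04, -0.79, 1.36 and 0.85 against -0.16, -0.56, 0.91 and -0.26, and differed by -0.37 (exact permutation p = 0.6, adjusted p = 0.657, interval -1.92 to 1.69). Neither ratio separated the groups, and both intervals reach well beyond 1 log2 unit on either side, so the values do not show that Pdcd1 per T cell was the same. In bulk tumors, fewer T cells and less Pdcd1 RNA per T cell cannot be told apart.

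The table held 10 of 17 T cell markers, each lower with F. nucleatum (median log2 difference -1.93, against -1.82 for its 353 lower genes). Their summed level was 3.15 to 8.59 FPKM in the controls against 0.652 to 2.79 FPKM in the F. nucleatum tumors, without overlap. No marker was listed at 0 in more than 1 tumor. These 10 were in the table because they differed in this same comparison, so lower sums follow from that selection. The rest of the 17 were not analysed here, and the sums do not measure T cell content. In the F. nucleatum group the sum followed the order of Pdcd1, with 2.79, 1.71, 1.07 and 0.652 FPKM in tumors 36, 37, 39 and 40. Among the controls it did not, since tumor 18 had the lowest sum, 3.15 FPKM, and the second highest Pdcd1. Of the 10, Cd8a and Lck passed an FDR of 0.05 by the authors' deposited table (6.25% of the whole table was lower and passed), and none had an adjusted p under 0.05 in limma. Themis, a T cell lineage protein, had a log2 difference of -2.40 ± 0.71 (SE). The part that T cell content has in the Pdcd1 difference was not tested beyond the 2 ratios.

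The PD-1 pathway list held 24 genes, of which 6 were in the table, all lower (median log2 difference -1.66): the receptor Pdcd1, its ligand Cd274, the CD3 chains Cd3d (-2.78 ± 1.09, SE) and Cd3g, the kinase Lck, which starts T cell receptor signalling (-1.21 ± 0.27), and the adaptor Lat (-1.25 ± 0.39). The groups did not overlap in 4 of them, namely Pdcd1, Lck, Cd3d and Lat, where 12.4% of the whole table was lower without overlap. By the authors' deposited table, 2 of the 6, Pdcd1 and Lck, passed an FDR of 0.05, against 6.25% of the table that was lower and passed. The second PD-1 ligand, Pdcd1lg2, which lies next to Cd274 on chromosome 19, and the phosphatases Ptpn11 and Ptpn6 were not in the table, and their values were not analysed here.

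Among 21 other inhibitory receptors and ligands, 3 were in the table, each lower without overlap. The same held for 12.4% of the table, or 93 of its 353 lower genes. Klrc1, which encodes NKG2A of natural killer and cytotoxic T cells, differed by -3.29 ± 1.24 (SE), Cd96 by -2.93 ± 0.84 and Ctla4, the receptor that competes with CD28, by -2.80 ± 1.11. The authors' deposited table gave them FDRs of 0.235, 0.402 and 0.816, so of these 4 inhibitory receptors Pdcd1 alone passed 0.05 there. In limma none of the 4 passed. The adjusted p by limma was 0.0932 for Pdcd1, Klrc1 and Cd96, a value that many genes of the table shared, and 0.09996 for Ctla4. Their unadjusted p by limma differed, with 0.00104 for Pdcd1, 0.00882 for Klrc1, 0.00651 for Cd96 and 0.0153 for Ctla4. The other 18, among them Lag3, Havcr2 and Tigit, were not analysed here. Klrc1 and Ctla4 were listed at 0 in 1 tumor each and Cd96 in 2, and at such low reads the added 1 shrinks the differences.

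Of 9 co-stimulatory receptors, which raise T cell signals, 5 were in the table, each with a lower mean in the F. nucleatum tumors, and 1 of the 5 passed an FDR of 0.05 by the authors' deposited table (6.25% of the table). Cd226, an activating receptor that shares ligands with Cd96, differed by -3.70 ± 0.77 (SE) and had an FDR of 2.15e-05 in the authors' deposited table. Cd2 (-1.78 ± 0.55), Icos (-1.44 ± 0.58), Cd40lg (-1.83 ± 1.12) and Tnfrsf4 (-1.23 ± 0.49) had FDRs of 0.462 to 0.914 there. Cd40lg was listed at 0 in 6 tumors. Of 15 regulators of Pdcd1 and markers of exhausted T cells, 4 were in the table and lower: the chemokine receptor Cxcr6 (-1.92 ± 0.35, FDR 0.00125 in the authors' deposited table), Nr4a3, a transcription factor induced by T cell receptor signals (-1.36 ± 0.46, FDR 0.203), Eomes, a transcription factor of cytotoxic lymphocytes (-2.90 ± 1.04, FDR 0.820), and Irf4 (-1.57 ± 0.66, FDR 0.999987). Tox, Tcf7, Nr4a1 and the other 8 were not analysed here. The counts of lower genes in these lists were as large without tumors 36 and 37.

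**Figure D3:**
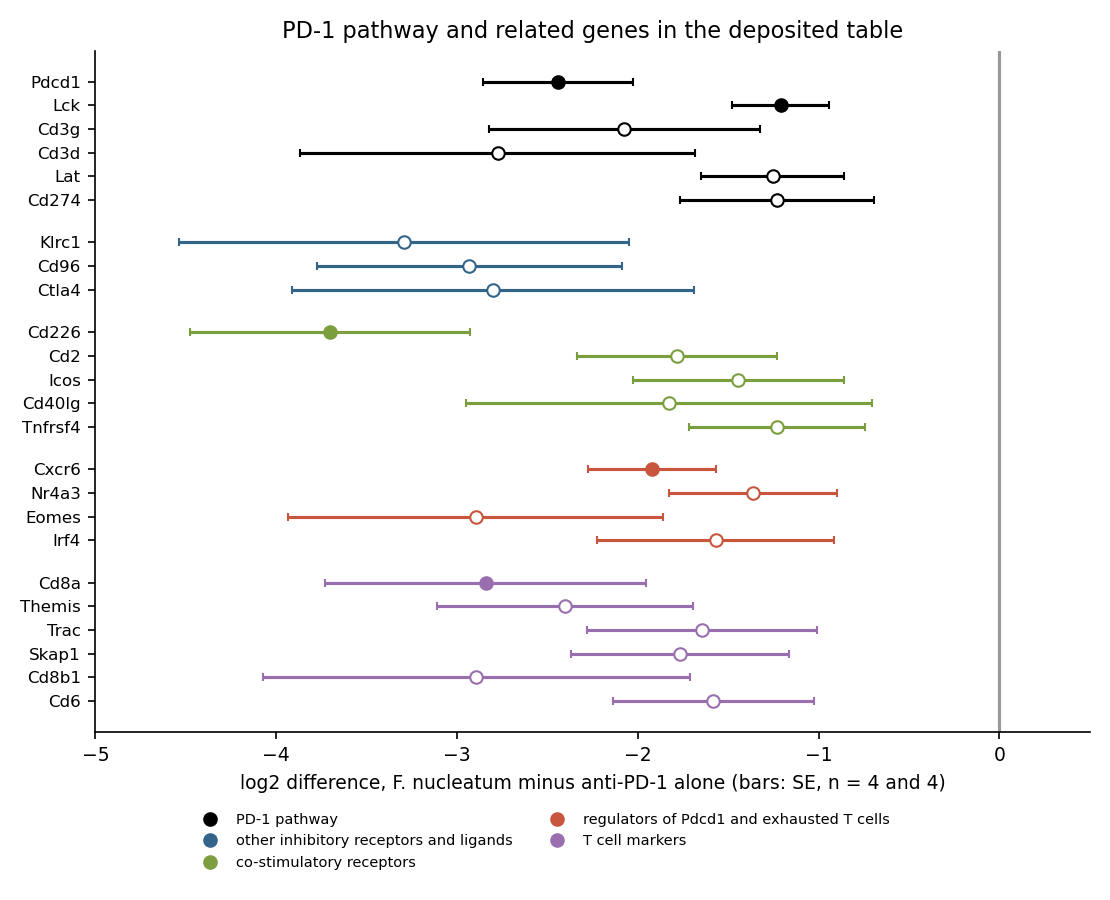
Log2 difference, F. nucleatum minus anti-PD-1 alone, of the 24 genes of the table that belong to the PD-1 pathway and related T cell lists, each shown once under the first list that holds it; bars are the SE of a difference of means of 4 and 4 tumors, and filled points passed an FDR of 0.05 by the authors' deposited table. All 24 lie below 0, in a table selected for differences above 1 log2 unit, and Pdcd1 (-2.44) and Lck (-1.21) have the filled points of the PD-1 pathway.

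Cd274 was set beside Cxcl9, a chemokine that recruits activated T cells, and Gbp2, a guanylate-binding GTPase, both strongly induced by interferon-gamma. Cxcl9 had log2 normalized counts of 10.05, 12.46, 12.18 and 10.07 in tumors 11, 17, 18 and 19, and 10.77, 6.09, 7.49 and 6.19 in tumors 36, 37, 39 and 40. Gbp2 had 11.21, 13.38, 13.74 and 10.96 against 11.84, 9.92, 9.55 and 9.49. In all 3 genes tumors 17 and 18 were the highest of the 8 and tumor 36 was the highest of its group, above tumor 11 and, for Cxcl9 and Gbp2, above tumor 19. Over the 8 tumors Cd274 and Cxcl9 had a Pearson r of 0.913 (exact permutation p = 0.000918, adjusted p = 0.00184 over 2 relations) and a Spearman rho of 0.952 (p = 0.00114, adjusted p = 0.00228, exact permutation). Without tumors 37 and 40, the farthest from the median of Cxcl9, r was 0.902 (exact permutation p = 0.00833, adjusted p = 0.0167) and rho was 0.886 (exact permutation p = 0.0333, adjusted p = 0.0667).

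Cd274 and Gbp2 had a Pearson r of 0.872 (exact permutation p = 0.00551, adjusted p = 0.00551) and a Spearman rho of 0.857 (p = 0.0107, adjusted p = 0.0107, exact permutation). Without tumors 17 and 18, the farthest from the median of Gbp2, r was lower at 0.632 (exact permutation p = 0.168). With tumor 17 alone left out it was 0.828, and with tumor 18 alone left out 0.819. The groups overlapped in all 3 genes, but the group difference is part of both coefficients. Their p-values come from shuffling tumors across the groups. They do not allow for the selection of these genes on that difference. With each group mean subtracted, r was 0.83 for Cxcl9 and 0.76 for Gbp2, given as a description over 8 tumors of a table selected on the group difference. By this r they ranked 27 and 45 among 496 genes of the table, so the likeness to Cd274 was not particular to them. In the F. nucleatum group Cd274 and Cxcl9 had the same order, 36, 39, 40, 37, whereas Gbp2 had the order 36, 37, 39, 40, so tumor 37 was the lowest in Cd274 and the second highest in Gbp2.

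**Figure D4:**
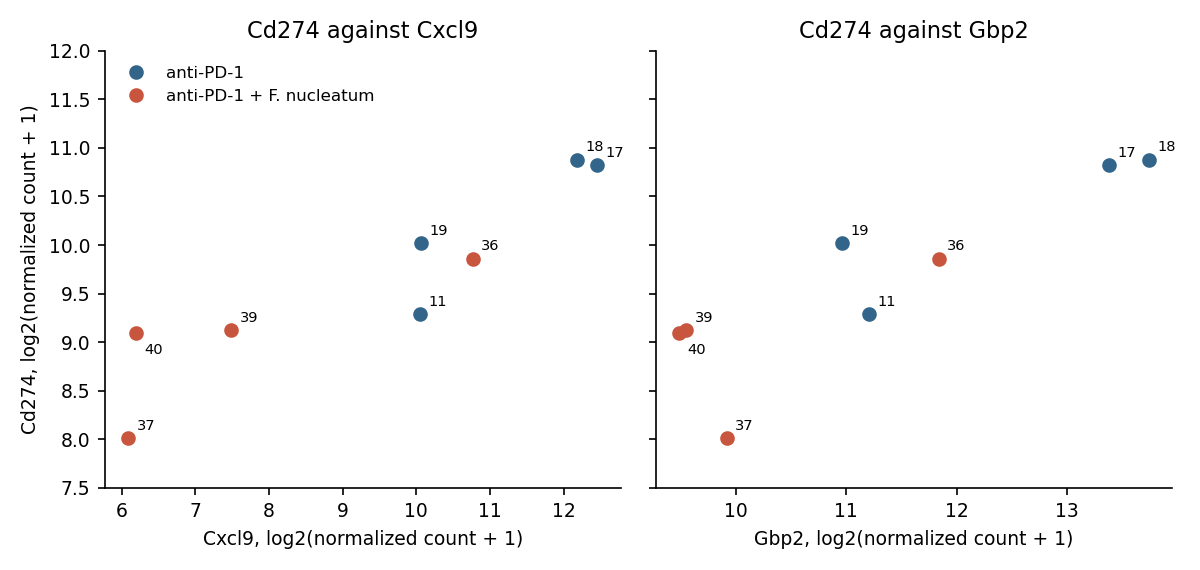
Cd274 against Cxcl9 (left) and against Gbp2 (right), each as log2(normalized count + 1), 1 point per tumor with its number, coloured by group. Tumors 17 and 18 sit at the top right in both panels, tumor 37 is lowest in Cd274 (8.01), and tumor 36 lies among the controls.

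The ratio of Cd274 to each target asks whether the ligand gene differed by less than the targets did, and neither ratio passed the exact permutation test. The log2 ratio of Cd274 to Cxcl9 was -0.75, -1.64, -1.30 and -0.05 in tumors 11, 17, 18 and 19 and -0.91, 1.91, 1.63 and 2.90 in tumors 36, 37, 39 and 40. It was higher in 3 of the 4 F. nucleatum tumors than in any control, by 2.32 on average (exact permutation p = 0.0857, adjusted p = 0.214, interval -0.85 to 4.54), and tumor 36 lay within the controls. The ratio to Gbp2 was higher by 0.89 (exact permutation p = 0.2, adjusted p = 0.333, interval -1.03 to 2.45). None of the 5 ratios computed had an adjusted p under 0.05. The smallest p that 4 against 4 tumors allow is 0.0286 before adjustment. No ratio could therefore have passed unless others were at that smallest p too, so this count does not show that the ratios were alike.

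**Figure D5:**
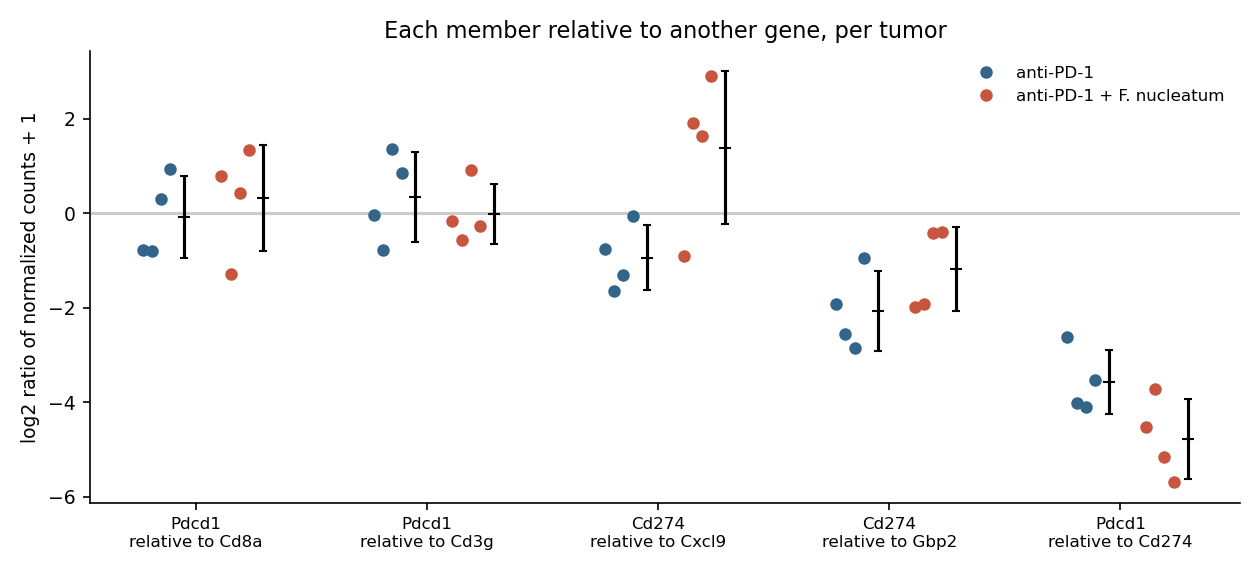
Log2 ratio of 2 genes in normalized counts + 1 per tumor, for the 5 ratios computed; points are tumors and black marks the mean ± SD of 4 tumors. The ratios of Pdcd1 to Cd8a and Cd3g lie on both sides of 0 in both groups, and the ratio of Cd274 to Cxcl9 is above every control in 3 F. nucleatum tumors (1.63 to 2.90) but not in tumor 36 (-0.91).

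The table held 22 of 28 interferon-gamma targets, and each was lower. Their median log2 difference was -2.10, beside -1.23 for Cd274 and -1.82 over all lower genes. They were also all lower without tumors 36 and 37. The groups did not overlap in 4 of the 22, and 12.4% of the whole table was lower without overlap. Of its 353 lower genes, the like base for the 22, 93 had no overlap and 47 passed an FDR of 0.05 by the authors' deposited table. Of the 22, 4 passed an FDR of 0.05 by the authors' deposited table, where 6.25% of the table was lower and passed: the immunoproteasome subunit Psmb8 (-1.22 ± 0.35, SE), Gbp8 (-4.40 ± 1.16), and the class II chains H2-Ab1 (-2.06 ± 0.54) and H2-Eb1 (-2.17 ± 0.55). Of 17 genes listed for interferon-gamma signalling, 1 was in the table: Ciita, an interferon-gamma-induced coactivator of MHC class II genes and not a step on the route to Cd274 (-2.08 ± 0.59, FDR 0.00181 in the authors' deposited table). Ifng, Jak1, Jak2 and Irf1 were not analysed here, and neither were the 10 other regulators of PD-L1 listed, such as Cmtm6, which keeps the protein at the cell surface.

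The cells that carry PD-L1 could be followed by few markers. None of 10 macrophage and monocyte markers was in the table, and of 8 dendritic cell markers it held Itgax (CD11c), at 1.94 to 7.20 FPKM in the controls against 0.840 to 2.10 FPKM. Tumors 18 and 17 were the highest in Itgax as in Cd274. Of 4 natural killer cell markers it held Nkg7, at 1.28 to 4.35 FPKM against 0.0810 to 1.151 FPKM. The part of such cells in the Cd274 values was not tested.

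The promoters of Cd274, Cxcl9 and Gbp2 are shown because these genes varied together over the tumors. Each is the 250 bases before the RefSeq start site, 5′ to 3′ on the gene's strand (GRCm38.p6), and capitals mark matches to the interferon-stimulated response element GAAANNGAAA or to the NF-kappaB motif GGGNNNNNCC, searched on both strands together with the interferon-gamma activated site GAS (TTCNNNGAA). They lie at chr19:29367188-29367437 (plus strand), chr5:92328080-92328329 (minus strand) and chr3:142620413-142620662 (plus strand).
Cd274: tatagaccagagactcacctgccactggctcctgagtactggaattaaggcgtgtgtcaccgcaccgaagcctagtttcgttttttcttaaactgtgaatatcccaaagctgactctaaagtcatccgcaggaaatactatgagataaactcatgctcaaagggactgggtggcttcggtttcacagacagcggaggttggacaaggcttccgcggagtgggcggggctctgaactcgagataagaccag
Cxcl9: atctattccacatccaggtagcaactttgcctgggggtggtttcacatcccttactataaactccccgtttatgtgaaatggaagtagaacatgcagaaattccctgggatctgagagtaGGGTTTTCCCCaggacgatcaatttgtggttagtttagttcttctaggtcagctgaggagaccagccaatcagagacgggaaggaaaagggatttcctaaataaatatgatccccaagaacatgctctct
Gbp2: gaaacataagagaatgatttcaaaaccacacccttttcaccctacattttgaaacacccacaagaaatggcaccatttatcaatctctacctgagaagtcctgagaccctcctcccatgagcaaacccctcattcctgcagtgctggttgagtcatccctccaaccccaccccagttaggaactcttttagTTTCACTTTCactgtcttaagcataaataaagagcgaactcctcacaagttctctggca

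Gbp2 had 1 response element, which began 59 bases before the start site. Cxcl9 had 2 overlapping NF-kappaB matches, which began 130 and 129 bases before it. None of the 3 motifs was found in these bases of Cd274 or of Pdcd1. Of 32851 mouse promoter windows of the same length, 2.98% held the response element, 7.02% the GAS motif and 45.8% the NF-kappaB motif, so the last is common by its letters alone. A match is a description of letters, and its absence says nothing about binding elsewhere in the gene.

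The 5 genes whose group-centred log2 values were most like those of Pdcd1, among 496 genes with a mean normalized count of at least 10, were Mybpc1, Myot, Trdn, Myh4 and Mylpf (r = 0.95 to 0.98 over 8 tumors), all genes of skeletal muscle fibres and all higher on average with F. nucleatum. Each was highest in tumor 36 and lowest in tumor 40 within that group, as Pdcd1 was, while Pdcd1 hardly varied among the controls, where Mybpc1 and Myot were listed at 0. These r values therefore rest on the 4 F. nucleatum tumors. Without tumor 36 their r was 0.80 to 0.93. Cd3g had r = 0.65 and Cd8a r = 0.62 with Pdcd1 on this measure, ranks 158 and 169 of the 496. Without tumor 36 these r were 0.42 and 0.90. Cxcl9 (r = 0.81, rank 83) and Gbp2 (r = 0.69, rank 139) ranked above both, with 0.31 and 0.42 without tumor 36. The muscle signal therefore moved with Pdcd1 inside the F. nucleatum group and against it between groups, and its part in the Pdcd1 values of that group was not tested.

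For Cd274 the 5 most like genes were Il7r, the interleukin-7 receptor of lymphocytes (r = 0.98), Lilra5 and Cd300lf, receptors of myeloid cells (0.96 and 0.93), Arg2, an arginase (0.93), and Gm1070 (0.92). Il7r had means of 1.21 FPKM in the controls against 0.515 FPKM, and Cd300lf 2.19 and 1.04 FPKM. The first 4 were lower with F. nucleatum, by 1.16 to 2.03 on the log2 scale, and Gm1070 was higher. All 5 were highest in tumor 36 and lowest in tumor 37 within that group, and without tumor 36 their r was 0.89 to 0.99. Cd274 and Pdcd1 themselves had r = 0.37 on this measure, and -0.24 without tumor 36.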

How the data were processed

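Per the labels' protocols, RNA was extracted with TRIzol and the TruSeq libraries keep the strand. STAR 2.5, DESeq 1.22.1, Cuffnorm, FastQC and the build mm10 are named, without roles, in the submitters' processing notes. The authors deposited, per gene and tumor, a log2 value and an FPKM value, and, per gene, a log2 fold change, a p-value and an FDR, by a test that the sources used here do not give. Undoing the deposited log2 gave whole multiples of 1 step per tumor for 100% of values above 0 (tolerance 0.1 read), so reads were recovered. Library totals are unknown. All libraries of a group differed by more than counting noise (lowest chi-square for each degree of freedom 28.1).

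Groups followed the treatment label. limma 3.58.1 (R 4.3.3, eBayes with trend) was fitted to the log2 values of all 752 genes, with Benjamini-Hochberg adjustment over them, and was tested on simulated data. Low genes were kept because Pdcd1 is one. Ratios and correlations used two-sided exact permutation tests (Python 3.11.15, scipy 1.17.1). Named genes were the members, their 4 partner genes, the 5 most alike genes, and table genes of each list (4 by the authors' p where a list had over 8). The members and lists were chosen with earlier results of these data known. Alternatives were log2(FPKM + 1), log2(FPKM + 0.1), a 1 FPKM filter, no trend, array weights, median centring, voom, and leaving out tumors. All 752 gene IDs matched GENCODE M21, and promoters came from RefSeq. No protein sequence was used here.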

Additional observations from a re-analysis of the deposited data

Results flagged for a closer look

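Within the F. nucleatum group, tumor 36 lay far above the other 3 tumors in FPKM for both interferon-gamma targets set beside Cd274. Cxcl9 had 9.34 FPKM there against 0.340 to 0.931 FPKM in tumors 37, 39 and 40, and its gap to the next tumor was 0.934 of the range of the group. Gbp2 had 23.6 FPKM against 4.32 to 5.95 FPKM, with a gap of 0.916 of the range. These were 2 of 24 groups of values examined with Dixon's test at its 95% critical value, which chance passes in about 1 group in 20, and none of the 12 groups on the log2 scale was among them. Neither Pdcd1 nor Cd274 had such a tumor.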

How the results depend on the processing

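The direction of the Pdcd1 and Cd274 differences held in every alternative run. Pdcd1 passed an adjusted p of 0.05 in limma with array weights (-2.77), with median centring (-3.05, where centring moved every difference by -0.61) and without tumors 36 and 37 (-3.01), and its difference ranged from -2.80 to -2.16 with 1 tumor left out. Cd274 passed in none of 16 alternatives. The number of genes called, 0 with all tumors, was 238 with array weights, which gave tumors 36 and 37 the lowest weights, 125 with median centring, 175 without tumors 36 and 37, and 0 to 146 with 1 tumor left out (146 without tumor 36, 32 without tumor 37, 2 without tumor 18 and 2 without tumor 40). The ratio of Pdcd1 to Cd8a reversed to -0.17 on log2(FPKM + 1) and -0.17 on log2(FPKM + 0.1). That of Pdcd1 to Cd274 reversed to 0.29 on log2(FPKM + 1), and none of these passed a test. On log2(FPKM + 1) the Pdcd1 difference went from -2.44 to -0.65 and the Cd274 difference from -1.23 to -0.94. The added 1 exceeds every Pdcd1 value in FPKM and no Cd274 value. The cause of the reversals was not tested further. Without the 2 tumors farthest from the median, r of Cd274 with Gbp2 was 0.632. With 1 tumor left out it was 0.819 to 0.939, and r of Cd274 with Cxcl9 was 0.885 to 0.953. Pdcd1 had a mean below 1 FPKM, so that filter gave no value for it. Genes at 0 in every tumor kept were left out of the fits that drop tumors. Leaving out tumors 36 and 37, or tumor 36 alone, for the lists and the most alike genes was chosen after seeing the data. No paired analysis was possible because the labels give the tumors no numbers shared between groups. Few reads limit Pdcd1 in tumors 37, 39 and 40 (16, 18 and 9), where counting error alone is 25.0%, 23.6% and 33.3%.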

Other observations

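In the KEGG terms of the deposited table, Pdcd1 belongs to T cell receptor signaling, of which 13 genes were listed. All 13 were lower with F. nucleatum, as were 353 of all 752 genes. The median log2 difference of the 13 was -2.44, the value of Pdcd1 itself, beside -1.82 over the 353. Beside the T cell genes described, the 13 included Il2 and Csf2, cytokines of activated T cells. Il2 differed by -1.91 ± 1.18 (limma SE, limma unadjusted p = 0.133) and Csf2 by -2.95 ± 1.03 (limma SE, limma unadjusted p = 0.0152). Pdcd1 and Cd274 share the term for cell adhesion molecules, of which 24 genes were listed, 23 lower and 1 higher (median log2 difference -1.66), and 10 of the lower ones passed an FDR of 0.05 by the authors' deposited table, where 6.25% of all 752 genes were lower and passed. The term also holds MHC chains such as H2-K1 and H2-Ab1, and integrins such as Itgal. These genes had been selected on the same comparison, so the counts describe the table, and the genes named from these terms were chosen after their values were seen.

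The small spread of Pdcd1 with anti-PD-1 alone stood out among genes of like level. Of 97 genes of the table with a mean normalized count of 50 to 200 in those 4 tumors, 2 had a smaller coefficient of variation than Pdcd1 (9.49%), and the median was 44.2%. Cd8a had 56.0% and Cd3g 71.6%. This measure was chosen after the values were seen, and a table selected by p-value favours genes with little spread within groups.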
